A study of Homo sapiens with 12 samples.

Results

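Growth factor receptor kinases are the cell surface proteins through which soluble growth factors reach the inside of the cell. The group described here held 10 genes of the 20263 in the expression table: 9 receptor tyrosine kinases (EGFR, ERBB2, MET, AXL, PDGFRA, PDGFRB, FGFR1, IGF1R and EPHA2) and TGFA, which encodes transforming growth factor alpha, a ligand of EGFR. They were taken by name, by matching the Ensembl identifiers of the table to these symbols, and all 10 were found. Messenger RNA was sequenced from U-87 MG cells, a human glioblastoma line, kept at 1% oxygen. The series' design text gives 72 hours of hypoxia, whereas the study's methods give a shorter exposure for mRNA detection, so the exposure behind these libraries is not certain. The 4 groups held 3 libraries each. The vector group carried an empty vector, the HIF1α-ko group lacked HIF1α, the HIF2α-ko group lacked HIF2α, and the HIF1α/2α-ko group, called the dual knockout below, lacked both. All 4 groups were hypoxic, so every difference below is a difference between hypoxic cells, and none of the libraries described here was normoxic. Whether a knockout line was 1 clone or a pool, where its edit lay, and whether the 3 libraries of a group came from separate cultures are not given in the sources used here. The p-values therefore measure the spread between these libraries, which may be technical.

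A receptor tyrosine kinase spans the membrane, pairs up when its ligand binds, and phosphorylates itself and adaptor proteins, which pass the signal to the RAS-ERK and PI3K-AKT cascades. EGFR is the receptor altered most characteristically in glioblastoma, by amplification and by internal deletion, and TGFA is made as a membrane-bound precursor that proteases cut free to bind it. HIF1α and HIF2α, encoded by HIF1A and EPAS1, are the oxygen-regulated subunits of the hypoxia-inducible transcription factors, and TGFA is one of the growth factor genes known to respond to HIF2α in kidney cancer cells. Placed side by side in these cells, EGFR fell in each knockout and lowest in the dual knockout, and TGFA fell in both groups that lacked HIF2α. AXL was called lower in both groups that lacked HIF1α, and its HIF2α-ko libraries also lay below vector. EPHA2 rose in both groups that lacked HIF2α, though its call in HIF2α-ko was lost under 12 of 21 alternative fits.

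Values are in TPM, the share of a library's transcripts that come from a gene after scaling by transcript length, and can be compared between genes. Fold changes are differences of log2(TPM + 1) from limma, which understate the change of low genes, with Benjamini-Hochberg adjusted p-values over the 11731 genes that reached 1 TPM in at least 3 of the 12 libraries. A gene was called at an adjusted p under 0.05. HIF1A stood at 124.4 ± 23.5 TPM in vector and 48.5 ± 9.35 TPM in HIF1α-ko (SD, n = 3), a log2 fold change of −1.34 (adjusted p = 0.000851). In the dual knockout it stood at 75.5 ± 11.9 TPM (−0.71, adjusted p = 0.0104), so a large part of the transcript remained in both groups. In HIF2α-ko, where HIF1A was not the target, it stood at 86.8 ± 18.1 TPM, below all 3 vector libraries (−0.52, adjusted p = 0.112). The dual knockout did not separate from HIF2α-ko in HIF1A (−0.19, adjusted p = 0.453, libraries overlapping) and lay above HIF1α-ko (0.64, adjusted p = 0.0287), so the HIF1A transcript does not by itself show the HIF1α label of the dual knockout. EPAS1 fell from 321.8 ± 31.5 TPM in vector to 107.2 ± 17.0 TPM in HIF2α-ko (−1.59, adjusted p = 0.000375) and 117.0 ± 14.4 TPM in the dual knockout (−1.45, adjusted p = 1.3e-05), and differed by −0.28 in HIF1α-ko (adjusted p = 0.168). The mesenchymal genes VIM and CD44 were high in all 12 libraries (VIM 5635 to 14690 TPM), CDKN2A, whose locus U-87 MG lacks, was listed at 0 in all 12, and the glial genes GFAP and SOX2 stayed under 1 TPM. Of the markers of other cell types, MOG was listed at 0 in every library, PTPRC did not pass 0.033 TPM, and the endothelial genes CDH5 and VWF reached at most 3.63 and 2.93 TPM. TPM sums to the same total in each library by construction, so sequencing depth is unknown. Replicate 1 stood apart from the other 2 libraries in every group. Its Pearson r over genes to them was 0.983 to 0.984 in vector, where they had 0.994 between them, 0.987 to 0.988 in the dual knockout, 0.991 in HIF1α-ko and 0.992 in HIF2α-ko, where they had 0.996. Fewer cells of a kind and less RNA per cell cannot be told apart in such bulk samples.

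On GRCh38, GENCODE places EGFR at chr7:55019021-55211628 (+), TGFA at chr2:70447280-70554193 (−), AXL at chr19:41219203-41261766 (+), MET at chr7:116672390-116798386 (+) and EPHA2 at chr1:16124337-16156087 (−), all protein-coding genes whose values here sum over the whole gene.

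By length-scaled level, AXL and FGFR1 were the most abundant receptors and PDGFRA was nearly silent. In vector the mean levels ran from AXL at 480.6 ± 11.4 TPM through FGFR1 at 339.3 ± 140 TPM, EGFR at 100.7 ± 19.3 TPM, MET at 34.2 ± 1.05 TPM, PDGFRB at 32.5 ± 13.9 TPM, TGFA at 16.8 ± 4.01 TPM, EPHA2 at 10.7 ± 5.74 TPM, ERBB2 at 4.74 ± 0.752 TPM and IGF1R at 3.89 ± 1.61 TPM down to PDGFRA at 0.0255 ± 0.0224 TPM. Neighbours in this order overlapped in their libraries for MET and PDGFRB, for TGFA and EPHA2, and for ERBB2 and IGF1R. The other neighbours did not overlap. In the dual knockout the order changed: EGFR, at 24.5 ± 1.65 TPM, lay level with EPHA2 at 24.4 ± 4.23 TPM, PDGFRB at 26.1 ± 7.72 TPM and MET at 21.5 ± 4.64 TPM. The plot of the 10 genes by library shows these levels.

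**Figure D1:**
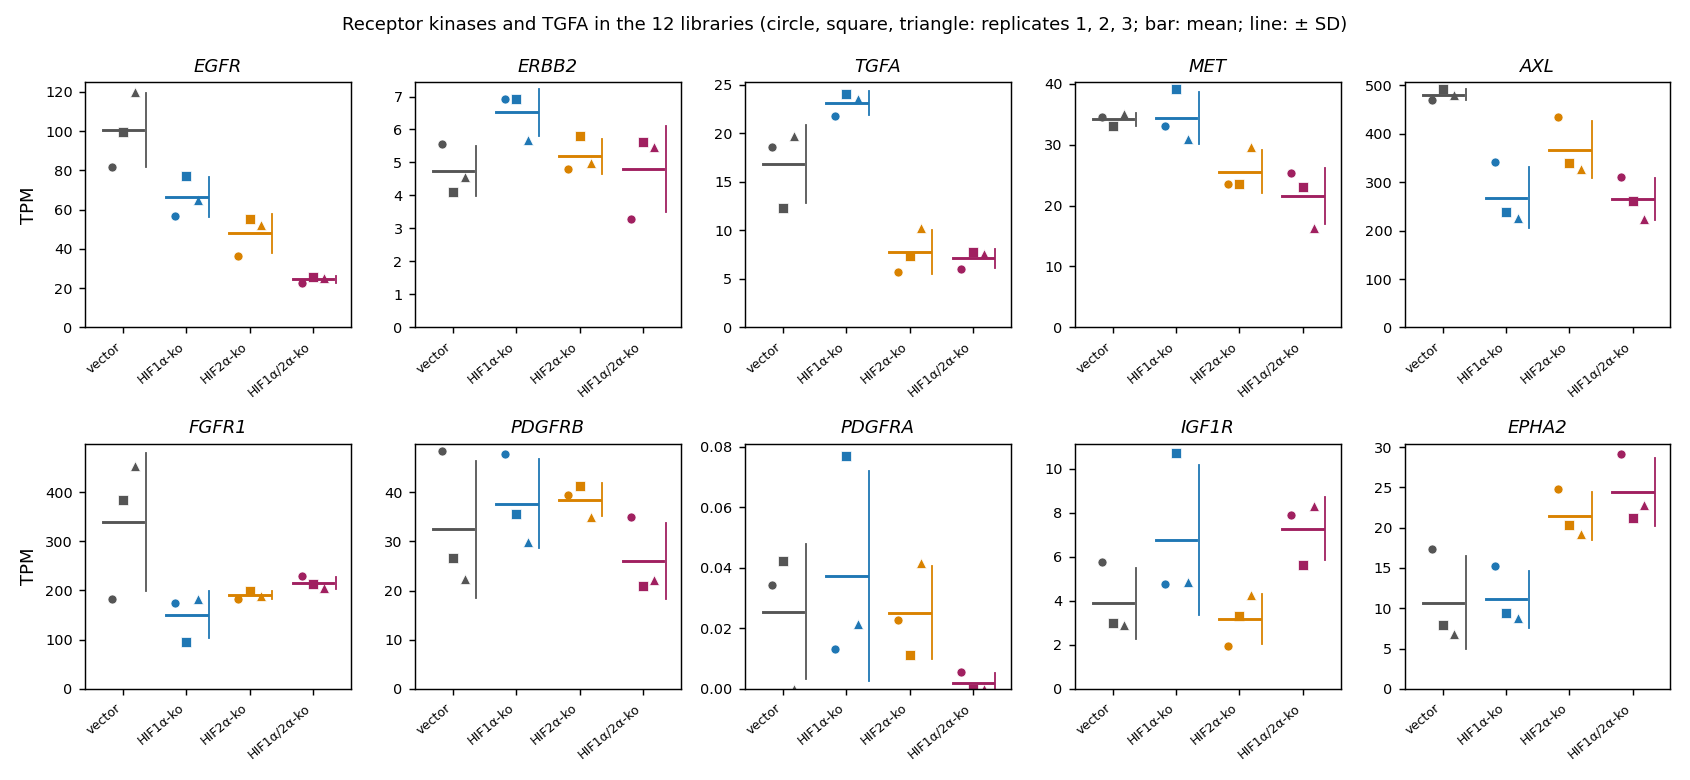
TPM of the 9 receptor kinases and TGFA (y axes, linear, each from 0) in the 12 libraries of the 4 groups (x axes), with symbols for replicates 1 to 3, a bar for the group mean and a vertical line for its SD. EGFR steps down from 100.7 TPM in vector to 24.5 TPM in the dual knockout, TGFA is low in both groups that lack HIF2α, and PDGFRA does not pass 0.0771 TPM anywhere.

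Of the 9 genes that entered the tests, 6 (EGFR, TGFA, AXL, MET, FGFR1 and EPHA2) were called in at least 1 of the 3 comparisons against vector, and ERBB2, PDGFRB and IGF1R in none. PDGFRA did not reach the minimum level. In HIF1α-ko, 3 members were lower and 0 higher, beside 26.1% of all tested genes called, 17.3% higher and 8.77% lower. In HIF2α-ko, 2 were lower and 1 higher, beside 11.0% called, 5.07% higher and 5.89% lower. In the dual knockout, 4 were lower and 1 higher, beside 46.7% called, 31.8% higher and 14.8% lower. The members' median log2 fold change was 0.12, −0.40 and −0.55 in the 3 comparisons, and the median of all tested genes was 0.18, −0.04 and 0.21. Dividing each library by its median ratio removed the shift of all genes (medians 0.01, −0.00 and −0.00), left the members' counts as they were, and gave members' medians of −0.05, −0.34 and −0.80. That scaling moved the calls over all genes from 2031 higher and 1029 lower to 1285 and 1545 in HIF1α-ko, from 595 and 691 to 761 and 579 in HIF2α-ko, and from 3732 and 1741 to 2760 and 2698 in the dual knockout. The libraries of the compared groups did not overlap for 5 of the 9 members in each of the 3 comparisons, where 39.6%, 30.5% and 50.5% of all genes did not overlap. Without vector replicate 1 the members called numbered 3, 4 and 7, without vector replicate 2 they numbered 1, 2 and 5, and without vector replicate 3 they numbered 1, 1 and 5. The calls over all 11731 genes moved with them, to 4194, 2497 and 5672, to 1814, 766 and 4717, and to 1648, 471 and 4799. The 3 comparisons share the vector libraries and are not independent of each other.

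**Figure D2:**
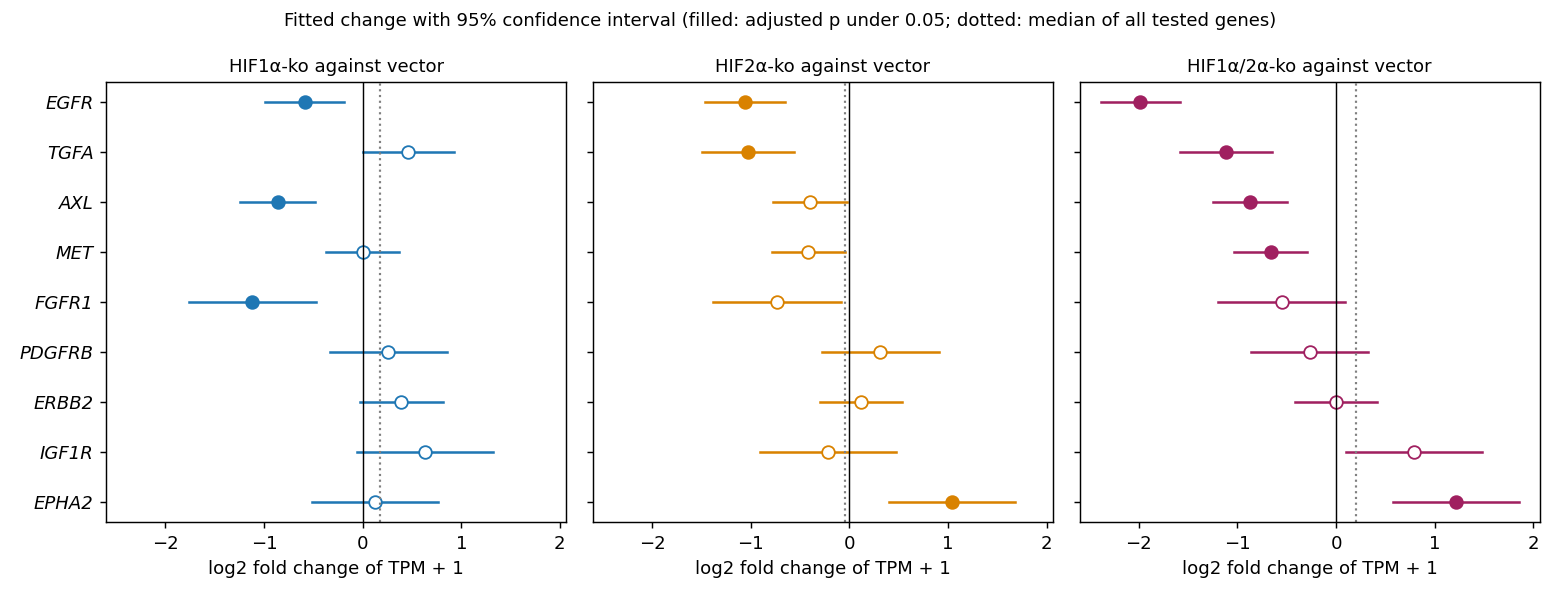
Fitted log2 fold change of TPM + 1 against vector (x axis) for the 9 tested genes (y axis) in the 3 knockout groups, with 95% confidence intervals. Filled points have an adjusted p under 0.05 and the dotted line is the median of all tested genes. EGFR lies to the left of 0 in all 3 panels, at −0.59, −1.06 and −1.98, and EPHA2 lies to the right at 1.04 and 1.22 in the HIF2α-ko and dual knockout panels.

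EGFR, the receptor of the epidermal growth factor family, stood at 81.9, 99.8 and 120 TPM in vector replicates 1 to 3 and at 56.9, 77.2 and 65.0 TPM in HIF1α-ko. It stood at 36.6, 55.1 and 52.4 TPM in HIF2α-ko and at 22.6, 25.5 and 25.3 TPM in the dual knockout. All 9 knockout libraries lay below all 3 vector libraries, the HIF1α-ko libraries lay above the HIF2α-ko libraries, and the dual knockout libraries lay below every other library. The log2 fold change against vector was −0.59 in HIF1α-ko (SE 0.19, adjusted p = 0.0363), −1.06 in HIF2α-ko (SE 0.19, adjusted p = 0.00575) and −1.98 in the dual knockout (SE 0.19, adjusted p = 9.24e-06), the last a 3.95-fold lower level. The HIF1α-ko call was lost without vector replicate 2 (adjusted p = 0.0892), without vector replicate 3 (−0.45, adjusted p = 0.14), without HIF1α-ko replicate 1 (adjusted p = 0.101) or 3 (adjusted p = 0.0998), with no filter (adjusted p = 0.0528) and in a fit of the 2 groups alone (adjusted p = 0.0598), while the HIF2α-ko and dual knockout calls held under all 21 alternatives.

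The dual knockout was also lower than each single knockout in EGFR. It differed from HIF1α-ko by −1.40 on the log2 scale (adjusted p = 0.000249) and from HIF2α-ko by −0.93 (adjusted p = 0.00157), and both held under all 22 alternatives. HIF1α-ko differed from HIF2α-ko by 0.47 (95% interval 0.07 to 0.87, adjusted p = 0.0809). With the replicate number as a block the same difference had an adjusted p of 0.0178, and of 0.00712 in the knockout groups alone. The interaction, which takes both single changes away from the change of the dual knockout, was −0.34 (95% interval −0.91 to 0.24, adjusted p = 0.388), so a departure of EGFR from additive changes on the log2 scale was not called. EGFR shares exonic sequence with EGFR-AS1, an antisense gene on the opposite strand, and whether reads were assigned by strand is not given.

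TGFA, the EGFR ligand, was lower in both groups without HIF2α. It stood at 18.6, 12.3 and 19.7 TPM in vector, at 21.8, 24.1 and 23.5 TPM in HIF1α-ko, at 5.76, 7.37 and 10.2 TPM in HIF2α-ko and at 5.99, 7.78 and 7.60 TPM in the dual knockout. The HIF1α-ko libraries were the 3 highest of the 12, the 6 libraries without HIF2α were the 6 lowest, and these ranges did not overlap with vector. The fold change was −1.03 in HIF2α-ko (SE 0.21, adjusted p = 0.011) and −1.12 in the dual knockout (SE 0.21, adjusted p = 0.00111). In HIF1α-ko it was 0.46 (95% interval −0.00 to 0.93, adjusted p = 0.125) and not called. The HIF2α-ko call was lost without vector replicate 3 (−0.91, adjusted p = 0.057) and in a fit of those 2 groups alone (adjusted p = 0.056).

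Between the knockouts, TGFA was higher in HIF1α-ko than in HIF2α-ko by 1.49 (2.81-fold, adjusted p = 0.000544) and lower in the dual knockout than in HIF1α-ko by 1.58 (2.99-fold, adjusted p = 0.000275), both under all 22 alternatives. The dual knockout and HIF2α-ko differed by −0.09, with a 95% interval of −0.55 to 0.38 (adjusted p = 0.768). Their libraries overlapped. The interaction was −0.55 (95% interval −1.21 to 0.11, adjusted p = 0.215), and −0.78 with an adjusted p of 0.0378 after quantile normalization.

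The windows just upstream of the EGFR and TGFA starts are shown because these 2 genes, a receptor and its ligand, were lower without HIF2α. They are the 250 bases before the RefSeq start on GRCh38.p14, written 5′ to 3′ on the gene's strand, with any match to the core letters of the hypoxia response element in capitals. The letters searched were ACGTG and GCGTG and their reverse complements CACGT and CACGC. EGFR and TGFA each have 2 listed starts, and the second EGFR window (chr7:55109589-55109838) held no match and is not printed.
EGFR, window 1, chr7:55018767-55019016 (+): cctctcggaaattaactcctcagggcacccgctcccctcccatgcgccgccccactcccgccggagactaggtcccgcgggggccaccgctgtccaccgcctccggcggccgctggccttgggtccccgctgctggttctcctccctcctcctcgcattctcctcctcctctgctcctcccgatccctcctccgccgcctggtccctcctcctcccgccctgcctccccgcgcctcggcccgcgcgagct
TGFA, window 1, chr2:70553827-70554076 (−): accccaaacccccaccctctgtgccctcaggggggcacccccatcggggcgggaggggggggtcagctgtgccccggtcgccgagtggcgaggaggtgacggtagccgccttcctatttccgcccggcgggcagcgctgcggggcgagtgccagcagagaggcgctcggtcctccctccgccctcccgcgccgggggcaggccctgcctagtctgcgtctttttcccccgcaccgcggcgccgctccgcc
TGFA, window 2, chr2:70553447-70553696 (−): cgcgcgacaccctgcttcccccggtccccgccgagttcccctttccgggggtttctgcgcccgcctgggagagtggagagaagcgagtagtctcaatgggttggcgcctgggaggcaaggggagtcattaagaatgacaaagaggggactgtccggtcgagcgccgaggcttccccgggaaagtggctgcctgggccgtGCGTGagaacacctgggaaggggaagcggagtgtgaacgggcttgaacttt
The first EGFR window and the first TGFA window held no match either, and the second TGFA window held 1, GCGTG, at position −51 counted back from the start. Such a match was present in 15172 of 35116 windows of this length in the table (43.2%) and in 6 of the 13 windows listed for 9 of the member genes. IGF1R held 5 matches, the second AXL window 4, and EPHA2, PDGFRB and MET 1 each. A match is a run of letters and not evidence of binding, and its absence covers this window only.

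Of the other EGFR ligand genes, HBEGF and EREG were higher in the dual knockout, where TGFA was lower, and EGF was not called (−0.17, adjusted p = 0.446). HBEGF, heparin-binding EGF-like growth factor, stood at 3.22, 0.961 and 1.02 TPM in vector and at 5.22, 19.5 and 18.6 TPM in the dual knockout, a log2 fold change of 2.41 (adjusted p = 0.000607). EREG, epiregulin, stood at 7.76, 0.645 and 0.659 TPM in vector and at 8.12, 40.3 and 42.7 TPM in the dual knockout, a fold change of 3.14 (adjusted p = 0.00185) that was 3.945 without vector replicate 1 (adjusted p = 0.000188). For both genes replicate 1 of vector lay high and replicate 1 of the dual knockout lay low, so that for EREG these 2 libraries nearly met. The changes of HBEGF and EREG in the single knockouts were not called (0.58 and 1.28 in HIF1α-ko, adjusted p = 0.321 and 0.159, and 1.19 and 1.77 in HIF2α-ko, adjusted p = 0.0914 and 0.102). Without vector replicate 1, EREG was called in both (2.09, adjusted p = 0.0134, and 2.58, adjusted p = 0.00804) and HBEGF in HIF2α-ko (1.55, adjusted p = 0.0276).

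The 7 EGFR ligand genes were TGFA, EGF, HBEGF, AREG, EREG, BTC and EPGN, and AREG was listed at 0 in all 12 libraries. Their summed level was 23.1 ± 8.42 TPM in vector, 33.6 ± 3.35 TPM in HIF1α-ko, 23.3 ± 5.87 TPM in HIF2α-ko and 53.4 ± 28.5 TPM in the dual knockout, where replicate 1 gave 20.5 TPM and replicates 2 and 3 gave 69.3 and 70.4 TPM. TGFA made up 58.7%, 83% and 86.2% of that sum in the vector libraries and 65.6% to 72.6% in HIF1α-ko. It made up 30.5% to 35.5% in HIF2α-ko and 29.2%, 11.2% and 10.8% in the dual knockout. These sums and shares were chosen after the values were seen and were not tested. ERBB3 and ERBB4, the other receptors of the family, stayed under 1 TPM in every library.

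**Figure D3:**
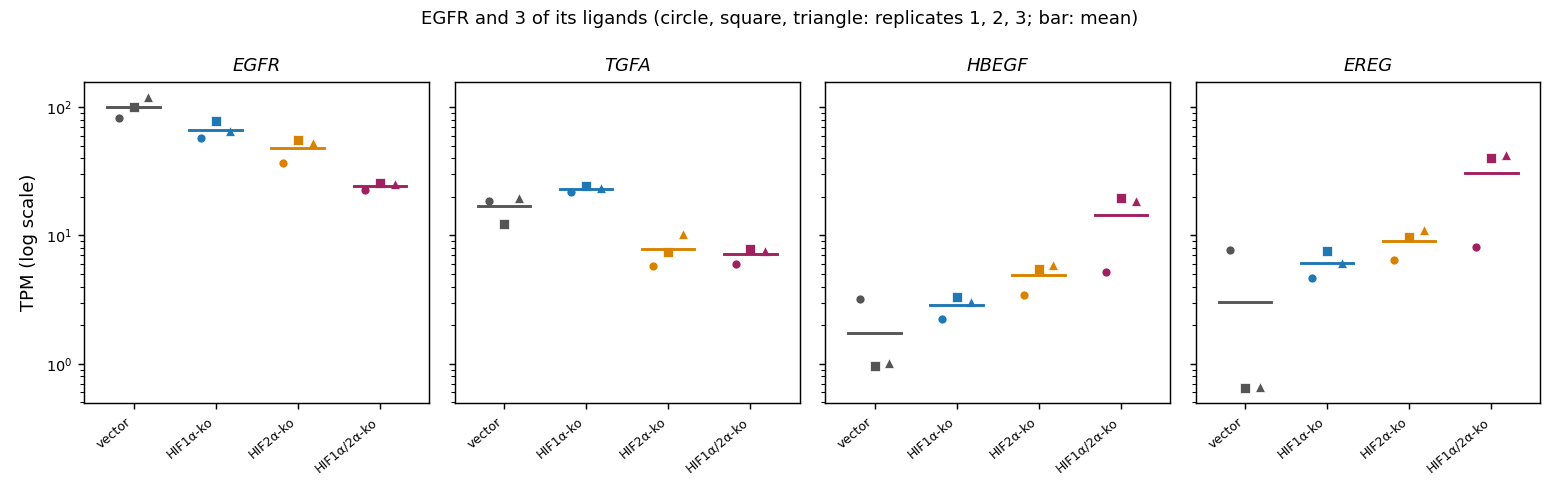
TPM of EGFR, TGFA, HBEGF and EREG (y axis, log scale, shared by the panels) in the 12 libraries of the 4 groups (x axes), with a symbol for each replicate and a bar for the mean. EGFR and TGFA are lower in the dual knockout than in vector, whereas HBEGF reaches 19.5 TPM and EREG 42.7 TPM there, with replicate 1 of vector and of the dual knockout close together.

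ERBB2, the partner receptor that has no ligand of its own, varied between 3.29 and 6.93 TPM over all 12 libraries. Its fold changes were 0.39 in HIF1α-ko (95% interval −0.02 to 0.81, adjusted p = 0.145), 0.12 in HIF2α-ko (−0.30 to 0.53, adjusted p = 0.755) and −0.00 in the dual knockout (−0.42 to 0.41, adjusted p = 0.988). The 3 HIF1α-ko libraries, at 6.93, 6.93 and 5.69 TPM, lay above the vector libraries at 5.57, 4.10 and 4.55 TPM without passing the threshold. Quantile normalization gave a difference of −0.46 between the dual knockout and HIF2α-ko (adjusted p = 0.0176), which was −0.12 without it (adjusted p = 0.64). ERBB2 shares exonic sequence with MIEN1 and PGAP3 on the opposite strand.

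AXL, the receptor for GAS6, was called lower in HIF1α-ko and in the dual knockout. It stood at 470, 492 and 480 TPM in vector, at 341, 238 and 226 TPM in HIF1α-ko, at 435, 339 and 328 TPM in HIF2α-ko and at 310, 261 and 223 TPM in the dual knockout. All 9 knockout libraries lay below the vector libraries, and replicate 1 was the highest in each knockout group. Its log2 fold change was −0.86 in HIF1α-ko (SE 0.17, adjusted p = 0.0044) and −0.87 in the dual knockout (SE 0.17, adjusted p = 0.00141), both held under all 21 alternatives, and −0.40 in HIF2α-ko (95% interval −0.77 to −0.02, adjusted p = 0.164). Without replicate 1 of every group the HIF2α-ko change was −0.54 and was called (adjusted p = 0.00335). HIF1α/2α-ko and HIF1α-ko differed by −0.01, with a 95% interval of −0.39 to 0.37 (adjusted p = 0.978).

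AXL was lower in the dual knockout than in HIF2α-ko by 0.47 (1.39-fold, adjusted p = 0.0397). That call was lost without HIF2α-ko replicate 1 (adjusted p = 0.156) or 2 (adjusted p = 0.057), without HIF1α/2α-ko replicate 2 (adjusted p = 0.0902) or 3 (adjusted p = 0.16), with no filter (adjusted p = 0.0618) and with no mean-variance trend (adjusted p = 0.0553). HIF1α-ko differed from HIF2α-ko by −0.47 with an adjusted p of 0.066, of 0.0175 with the replicate block and of 0.00175 with the block in the knockout groups alone. GAS6, its ligand gene, did not reach 1 TPM in any library. PROS1, which encodes protein S, was not called (0.69 in HIF1α-ko, adjusted p = 0.0508, and −0.28 in the dual knockout, adjusted p = 0.349). TYRO3, a receptor of the same family, rose in both groups where AXL was called lower. It stood at 4.43, 5.32 and 5.39 TPM in vector and at 8.35 to 8.65 TPM in HIF1α-ko (0.66, adjusted p = 0.00552). In the dual knockout it stood at 19.7 to 21.6 TPM (1.85, adjusted p = 2.14e-06), and in HIF2α-ko at 5.54 to 6.61 TPM (0.19, adjusted p = 0.411). AXL shares exonic sequence with an antisense gene on the opposite strand.

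MET, the receptor of hepatocyte growth factor, stood at 34.5, 33.0 and 35.0 TPM in vector and at 33.0, 39.1 and 30.9 TPM in HIF1α-ko. It stood at 23.5, 23.5 and 29.6 TPM in HIF2α-ko and at 25.3, 23.0 and 16.4 TPM in the dual knockout. All 6 libraries without HIF2α lay below the 6 with it. The dual knockout was lower than vector by 0.66 (1.58-fold, SE 0.17, adjusted p = 0.00689), under all 21 alternatives, while HIF2α-ko differed from vector by −0.41 (95% interval −0.78 to −0.05, adjusted p = 0.14) and HIF1α-ko by 0.00 (−0.37 to 0.37, adjusted p = 0.997). The dual knockout was also lower than HIF1α-ko (−0.66, adjusted p = 0.0122), a call lost without HIF1α-ko replicate 2 (adjusted p = 0.053) or HIF1α/2α-ko replicate 3 (adjusted p = 0.0562). It differed from HIF2α-ko by −0.25 (adjusted p = 0.253), and by −0.54 after median ratio scaling (adjusted p = 0.0346) and −0.58 after quantile normalization (adjusted p = 0.0226). HGF, its ligand gene, lay between 0.26 and 1.36 TPM.

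EPHA2, a receptor of membrane-bound ephrins, was the single member called higher against vector. It stood at 17.3, 7.94 and 6.81 TPM in vector and at 15.2, 9.38 and 8.78 TPM in HIF1α-ko. It stood at 24.8, 20.3 and 19.2 TPM in HIF2α-ko and at 29.2, 21.2 and 22.8 TPM in the dual knockout. The 6 libraries without HIF2α lay above the 6 with it, and replicate 1 was the highest in each of the 4 groups. The dual knockout exceeded vector by 1.22 (2.32-fold, SE 0.29, adjusted p = 0.00489), under all 21 alternatives. HIF2α-ko exceeded vector by 1.04 (SE 0.29, adjusted p = 0.0418), and that call was lost under 12 of 21 alternatives, among them those without vector replicate 2 (adjusted p = 0.13) or 3 (0.80, adjusted p = 0.173), without HIF2α-ko replicate 1, 2 or 3 (adjusted p = 0.125, 0.1 and 0.0867), without HIF1α-ko replicate 2 or 3 (adjusted p = 0.0557 and 0.0528) and without HIF1α/2α-ko replicate 2 or 3 (adjusted p = 0.0544 and 0.058). HIF1α-ko differed from vector by 0.12 (95% interval −0.52 to 0.76, adjusted p = 0.785).

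Among the knockouts, EPHA2 was higher in the dual knockout than in HIF1α-ko by 1.09 (adjusted p = 0.0154), a call lost without HIF1α-ko replicate 2 (adjusted p = 0.0548) or 3 (adjusted p = 0.0626). It was lower in HIF1α-ko than in HIF2α-ko (−0.92, adjusted p = 0.039), a call lost without HIF1α-ko replicate 2 or 3 (adjusted p = 0.132 and 0.136), HIF2α-ko replicate 1, 2 or 3 (adjusted p = 0.127, 0.0787 and 0.0665) or HIF1α/2α-ko replicate 3 (adjusted p = 0.0508) and with no filter (adjusted p = 0.0671). The dual knockout and HIF2α-ko differed by 0.18 (95% interval −0.46 to 0.82, adjusted p = 0.651). Of the ephrin-A ligand genes, EFNA3 was lower in both groups without HIF1α, by 1.22 in HIF1α-ko (adjusted p = 0.00293) and 1.46 in the dual knockout (adjusted p = 0.00025). EFNA5 was lower in both groups without HIF2α: it stood at 13.8 to 21.5 TPM in vector, at 7.58 to 9.15 TPM in HIF2α-ko (−0.93, adjusted p = 0.0122) and at 6.46 to 9.99 TPM in the dual knockout (−0.96, adjusted p = 0.00174), and both calls held under all 21 alternatives. In HIF1α-ko it stood at 22.2 to 29.7 TPM (0.60, adjusted p = 0.041), a call lost under 10 of 21 alternatives, with adjusted p-values up to 0.153. EFNA3 and EFNA5 were chosen after their values were seen, and EFNA4 and EFNA1 had other patterns. EFNA4 stood at 1.74 to 4.31 TPM in vector. It was at 4.39 to 5.49 TPM in HIF2α-ko and 5.21 to 6.63 TPM in the dual knockout. EFNA1 stood at 1.04 to 1.29 TPM in vector. It was at 1.69 to 2.29 TPM in HIF2α-ko and 0.521 to 0.811 TPM in the dual knockout.

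FGFR1, a receptor of fibroblast growth factors, gave values that depended on vector replicate 1. It stood at 183, 383 and 452 TPM in vector, at 175, 96.0 and 182 TPM in HIF1α-ko, at 183, 199 and 188 TPM in HIF2α-ko and at 229, 214 and 205 TPM in the dual knockout. Vector replicate 1 lay among the knockout libraries and the other 2 vector libraries above all of them. The fold change of −1.12 in HIF1α-ko was called (SE 0.30, adjusted p = 0.0172), whereas HIF2α-ko, at −0.73 (adjusted p = 0.137), and the dual knockout, at −0.55 (adjusted p = 0.149), did not pass the test. Without vector replicate 1 the latter 2 were −1.13 (adjusted p = 0.00566) and −0.94 (adjusted p = 0.00537) and were called. The HIF1α-ko call was lost without vector replicate 2 (adjusted p = 0.0704) or 3 (adjusted p = 0.0782), without HIF1α-ko replicate 2 (adjusted p = 0.075) and in a fit of the 2 groups alone (adjusted p = 0.0602). FGFR1 shares exonic sequence with LETM2 and an antisense gene on the opposite strand.

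PDGFRB, a receptor of platelet-derived growth factor, and IGF1R, the receptor of insulin-like growth factors, were not called against vector. PDGFRB stood at 48.4, 26.7 and 22.4 TPM in vector, at 47.8, 35.5 and 29.9 TPM in HIF1α-ko, at 39.4, 41.3 and 34.9 TPM in HIF2α-ko and at 34.9, 21.0 and 22.2 TPM in the dual knockout. Replicate 1 was the highest in 3 of the 4 groups and the groups overlapped with vector. The dual knockout lay below HIF1α-ko by 0.53 (adjusted p = 0.171) and below HIF2α-ko by 0.58 (adjusted p = 0.101), and with the replicate block these had adjusted p-values of 0.0389 and 0.0181, or 0.0177 and 0.00849 in the knockout groups alone. After median ratio scaling the latter difference was −0.87 (adjusted p = 0.0346), and without vector replicate 1 its adjusted p was 0.0377. PDGFA, a platelet-derived growth factor gene, was higher in HIF1α-ko (0.94, adjusted p = 0.00634) and in the dual knockout (1.66, adjusted p = 4.92e-05). The other genes of this ligand family did not rise with it. PDGFC stood at 18.5 to 22.8 TPM in vector and at 10.9 to 14.5 TPM in the dual knockout. PDGFB did not pass 0.0518 TPM, and PDGFD was listed at 0 in every library.

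IGF1R stood at 5.75, 3.01 and 2.91 TPM in vector, at 4.77, 10.7 and 4.85 TPM in HIF1α-ko, at 1.96, 3.32 and 4.25 TPM in HIF2α-ko and at 7.91, 5.63 and 8.31 TPM in the dual knockout. Its libraries overlapped with vector in each comparison. It was higher in the dual knockout than in HIF2α-ko by 1.01 (adjusted p = 0.0203), without overlap, and that call was lost without HIF2α-ko replicate 1 (adjusted p = 0.0881) or HIF1α/2α-ko replicate 3 (adjusted p = 0.0694), after quantile normalization (0.67, adjusted p = 0.0774) and when replicate 1 was left out of every group (0.72, adjusted p = 0.086). The dual knockout differed from vector by 0.79 (95% interval 0.10 to 1.48, adjusted p = 0.0573), and by 1.05 without vector replicate 1 (adjusted p = 0.0213). IGF1 and IGF2, the ligand genes, did not pass 0.185 TPM.

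Between the 2 single knockouts, 2 of the 9 members were called, TGFA higher and EPHA2 lower in HIF1α-ko, beside 25.1% of all tested genes, 17.8% higher and 7.37% lower. With the replicate block 4 were called, beside 3991 of the 11731 genes, and 5 in the knockout groups alone, beside 5927. Of the members, 4 were called between HIF1α/2α-ko and HIF1α-ko (EPHA2 higher and EGFR, TGFA and MET lower, beside 28.3% of all genes, 17.7% higher and 10.6% lower) and 3 between HIF1α/2α-ko and HIF2α-ko (IGF1R higher and EGFR and AXL lower, beside 46.4%, 33.5% higher and 12.9% lower). Between the single knockouts, and between HIF1α/2α-ko and HIF2α-ko, the share of members called was below that of all genes. With the block 5 members were called between HIF1α/2α-ko and HIF1α-ko, beside 4082 of all genes, and 6 in the knockout groups alone, beside 5684. In the knockout groups alone, PDGFRB and FGFR1 (0.57, adjusted p = 0.0443, against 0.174 without the block) were the ones added. Between HIF1α/2α-ko and HIF2α-ko the count was 4 in both block fits, beside 6107 and 7339 of all genes, with PDGFRB added. The numbers of members whose libraries did not overlap in these 3 comparisons were 6, 6 and 4, beside 49.9%, 44.3% and 56.7% of all genes. The interaction was called for FGFR1 alone among the members, beside 20.6% of all genes, 13.2% higher and 7.35% lower. That share of members was also below that of all genes.

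Across the 12 libraries, EGFR and MET had a Pearson r of 0.81 on log2(TPM + 1), MET and TGFA 0.80, EGFR and TGFA 0.75, and EGFR and EPHA2 −0.86. The genes most like EGFR among all tested were BNC1 (r = 0.981), PSG4 (0.972) and MCC (0.969), and those most like TGFA were TRIM2 (0.968), ANK3 (0.964) and LXN (0.964). These values describe 12 libraries that share 4 group means and are given without a test.

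The shares of all tested genes called higher and lower, beside which the counts of each list stand, were 17.3% and 8.77% for HIF1α-ko, 5.07% and 5.89% for HIF2α-ko, and 31.8% and 14.8% for the dual knockout. Of 49 other receptor tyrosine kinase genes, 13 reached the minimum level. In HIF1α-ko 3 were higher and 0 lower, in HIF2α-ko none was called, and in the dual knockout 6 were higher and 3 lower. TYRO3 is given above. RYK, a Wnt-binding receptor without kinase activity, rose from 11.4 to 12.2 TPM in vector to 28.1 to 41.3 TPM in the dual knockout (1.49, adjusted p = 8.08e-05). It was also called higher in HIF1α-ko (0.81, adjusted p = 0.011), a call lost without HIF1α-ko replicate 2 (adjusted p = 0.0541). EPHB2, an ephrin-B receptor, rose from 5.54 to 6.52 TPM to 14.3 to 15.9 TPM (1.22, adjusted p = 0.000354) and was not called in either single knockout (−0.08 and −0.11, adjusted p = 0.79 and 0.768). In both cases the 3 dual knockout libraries lay above the vector libraries.

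The ligand list had 15 of 30 genes tested. In HIF1α-ko 2 were higher and 2 lower, in HIF2α-ko 0 and 2, and in the dual knockout 4 and 4, so genes were called in both directions. Of the 10 genes for the cleavage and transport of membrane-bound ligands, 2 were higher and 1 lower in HIF1α-ko, none was called in HIF2α-ko, and 2 were higher and 3 lower in the dual knockout. RHBDF1, an inactive rhomboid that carries the protease ADAM17 to the surface, rose by 1.02 in HIF1α-ko (adjusted p = 0.000728) and 1.59 in the dual knockout (adjusted p = 7.74e-06). ADAM17 itself, which cuts TGFA free, differed by 0.52 in the dual knockout (adjusted p = 0.19). ADAM12, a related protease, fell by 0.83 in HIF1α-ko (adjusted p = 0.0236) and 1.27 in the dual knockout (adjusted p = 0.000961). Its HIF1α-ko call was lost without vector replicate 1 (−0.65, adjusted p = 0.0579) or 3 and without HIF1α-ko replicate 2 or 3 (adjusted p up to 0.108). RHBDL2, a rhomboid protease, fell by 0.65 in the dual knockout (adjusted p = 0.0139), a call lost in a fit of the 2 groups alone (adjusted p = 0.0621).

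Inside the cell, all 28 genes of the adaptors and of the RAS-ERK and PI3K-AKT cascades were tested, and their medians were 0.08, −0.21 and 0.14 in the 3 comparisons. In HIF1α-ko 4 were higher and 3 lower, in HIF2α-ko 0 and 2, and in the dual knockout 7 and 2. Median ratio scaling gave 1 higher and 5 lower in HIF1α-ko and 5 and 7 in the dual knockout, and quantile normalization gave 2 and 5, and 4 and 6, so the balance of directions in this list turned with the scaling. MAPK3, which encodes ERK1, was at 403 to 537 TPM in vector and 168 to 277 TPM in the dual knockout (−1.20, adjusted p = 0.000254). It was also lower in HIF1α-ko (−0.93, adjusted p = 0.00434), under all 21 alternatives. In HIF2α-ko its change was −0.63 (adjusted p = 0.0486), a call lost under 14 of 21 alternatives. The dual knockout did not separate from HIF1α-ko in MAPK3 (−0.27, adjusted p = 0.303). GAB2, a docking adaptor, and PTPN11, the phosphatase SHP2 that receptors recruit, rose by 1.04 (adjusted p = 0.000138) and 1.01 (adjusted p = 0.000534) in the dual knockout. In HIF1α-ko GAB2 was also called higher (0.50, adjusted p = 0.0277), a call lost under 7 of 21 alternatives. PTPN11 was not called there (0.50, adjusted p = 0.0516).

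Of the genes that restrain receptors, 18 of 22 were tested, with 2 higher and 5 lower in HIF1α-ko. HIF2α-ko had 1 in each direction, and the dual knockout had 7 higher and 6 lower. The Sprouty genes, feedback inhibitors of receptor signalling, moved in different directions. SPRY1 fell by 1.18 in HIF1α-ko (adjusted p = 0.00119) and by 1.65 in the dual knockout (adjusted p = 2.39e-05), whereas SPRY2 stood at 14.1 to 18.6 TPM in vector and 40.2 to 54.0 TPM in the dual knockout (1.56, adjusted p = 7.96e-05) and rose by 0.93 in HIF2α-ko (adjusted p = 0.0142). The HIF2α-ko call was lost without vector replicate 2 or 3 and without HIF2α-ko replicate 2 or 3 (adjusted p up to 0.0677). CBL, a ubiquitin ligase that sends activated EGFR to degradation, rose by 1.44 in the dual knockout (adjusted p = 0.00258). CBLB and ERRFI1, of the same list, went the other way. CBLB stood at 22.5 to 26.4 TPM in vector and 12.4 to 16.1 TPM in the dual knockout. ERRFI1 stood at 462 to 709 TPM in vector and 146 to 312 TPM in the dual knockout.

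The list of genes switched on by ERK activity held 9 genes, all tested. In HIF1α-ko 2 were higher and 1 lower, in HIF2α-ko 1 and 1, and in the dual knockout 6 and 1, with medians of 0.48, 0.04 and 1.15 beside 0.18, −0.04 and 0.21 for all genes. In the dual knockout the 6 were SPRY2, SPRY4, DUSP4, DUSP6, ETV4 and ETV5, and the lower one was PHLDA1 (−0.53, adjusted p = 0.0422), a call lost under 7 of 21 alternatives, among them that without vector replicate 1 (adjusted p = 0.0686). DUSP4, a phosphatase that acts on ERK, stood at 3.67, 7.13 and 6.50 TPM in vector and at 15.3, 16.1 and 16.4 TPM in the dual knockout (1.36, adjusted p = 0.000276), and ETV5, an ETS-family factor, rose by 1.32 (adjusted p = 0.000279). DUSP6 overlapped between vector (10.8 to 29.6 TPM) and the dual knockout (21.4 to 69.9 TPM). With median ratio scaling the counts in the dual knockout were again 6 and 1 and the median 0.90, and without vector replicate 1 they were 6 and 0 and the median 1.21. They were 5 and 1 after quantile normalization and without vector replicate 2, and 5 and 0 without vector replicate 3. Without replicate 1 of every group they were 7 and 1. The HIF1α-ko counts became 0 and 1 with median ratio scaling and without vector replicate 2 or 3, and 4 and 2 without vector replicate 1. SPRY2 and SPRY4 also belong to the restraining genes, EPHA4 to the other receptors, and EPHA2, a member that rose, belongs to the same published set. The dual knockout calls of the pathway genes that the naming rule selected held under every alternative run except that of RHBDL2.

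**Figure D4:**
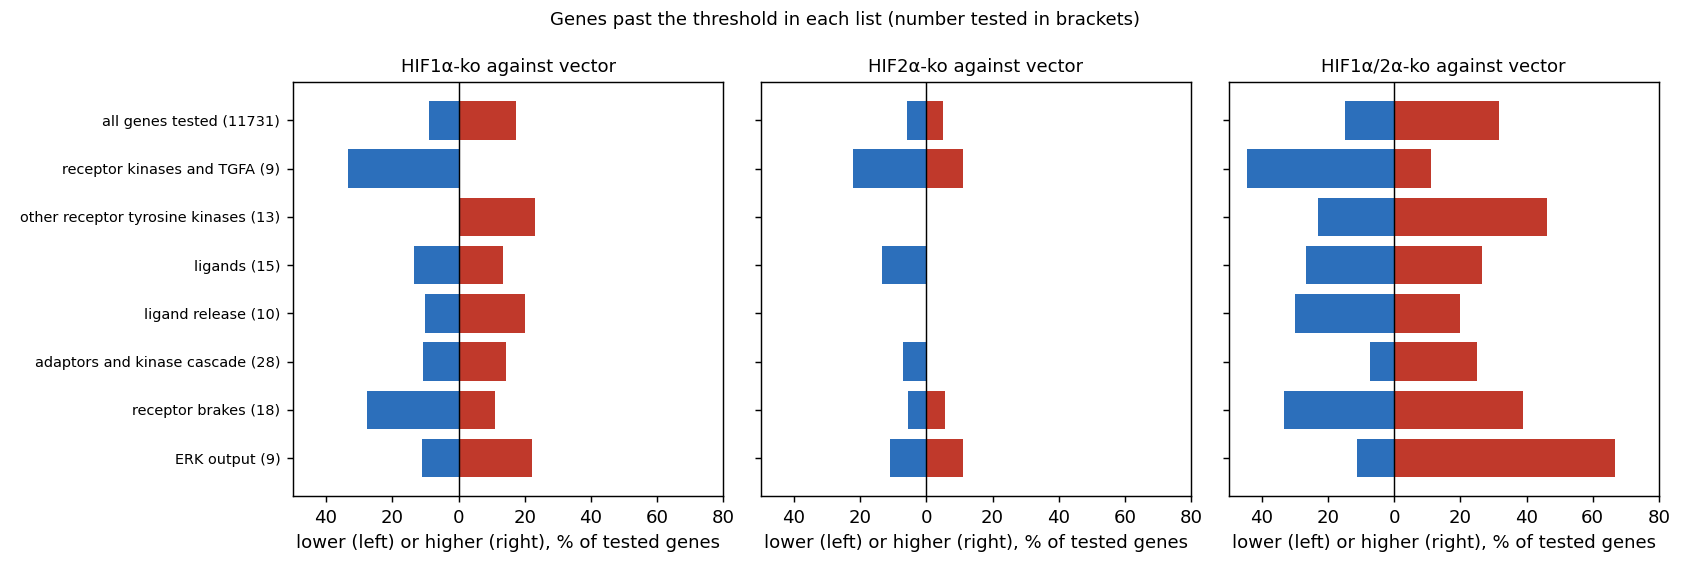
Percent of tested genes in each list (y axis, number tested in brackets) that were lower (left of 0) or higher (right of 0) than vector at an adjusted p under 0.05, for the 3 knockout groups. In the dual knockout 4 of the 9 members were lower and 1 higher, while 6 of the 9 ERK output genes were higher and 1 lower.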

How the data were processed

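mRNA was sequenced from 12 libraries of U-87 MG cells, 3 in each of 4 groups given by the treatment labels. The table of TPM values was deposited by the authors, with 1 column per library and Ensembl gene identifiers, on genome build GRCh38. The submitters' processing notes name FastQC 0.11.2, Trimmomatic 0.36, HISAT2 2.0 and bedtools 2.26.0. The program that made the TPM values, the annotation and the strand setting are not given in the sources used here. TPM keeps no sequencing depth, so no counting intervals were computed and no count model was used.

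Symbols were matched by a gene name table for 20148 of the 20263 genes and by GENCODE 29 for 76, and 39 had none. Gene positions and exon overlaps came from GENCODE 29 and promoter windows from RefSeq (GRCh38.p14). The 11731 genes that reached 1 TPM in 3 or more libraries entered limma 3.58.1 (R 4.3.3) on log2(TPM + 1), with a mean-variance trend, all 4 groups in 1 fit and Benjamini-Hochberg adjustment within each comparison. The procedure was tested on simulated data. Figures were drawn with matplotlib 3.10.9 (Python 3.11.15).

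The members and gene lists were chosen with earlier results of these data known, so they are not independent of them. Named were the members, HIF1A and EPAS1, the 3 genes of each list with the greatest absolute change in HIF1α/2α-ko among those called without overlap of the libraries, and the 3 genes most correlated with EGFR and with TGFA. Any other gene is named for its family or because it was one of a few called, after its values were seen. The alternatives were quantile normalization or median ratio scaling of the libraries, a smaller pseudocount (0.1), testing every gene above 0 or those with a mean TPM of at least 5, leaving out the mean-variance trend, fitting the compared pair of groups by itself, blocking on the replicate number and omitting each library. A run without replicate 1 of every group and the alternatives for list counts and pathway genes were added after the data were seen. Deviations of same-numbered libraries had correlations of 0.196 to 0.508 between the knockout groups (9 pairs) and of −0.027 to 0.163 with vector. Libraries of different numbers were not compared, so that the numbers pair the knockout groups is an assumption. On that assumption a fit with the block on those groups alone was run too, while the main tests used no block.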

Additional observations from a re-analysis of the deposited data

Results flagged for a closer look

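The effect of losing HIF2α on FGFR1 was called different with and without HIF1α in the main fit, but not under most alternatives. The interaction was 1.30 on the log2 scale (95% interval 0.39 to 2.21, adjusted p = 0.046 in limma), since the changes against vector were −1.12 and −0.73 in the single knockouts and −0.55 in the dual knockout. The call was lost under 15 of 20 alternatives, with values of 1.00 to 1.76 and adjusted p-values of 0.00214 to 0.11, and it held without vector replicate 1 (1.695, adjusted p = 0.00214). That library stood at 183 TPM against 383 and 452 TPM in the other vector libraries.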

How the results depend on the processing

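All values here are log2 fold changes or counts of the 9 members called. Over omissions of 1 library the counts ranged from 1 to 3 in HIF1α-ko, 1 to 4 in HIF2α-ko and 5 to 7 in HIF1α/2α-ko against vector, from 1 to 3 between the single knockouts, 2 to 5 and 1 to 4 between the dual knockout and HIF1α-ko or HIF2α-ko, and from 0 to 2 for the interaction. Without replicate 1 of every group these were 6, 6, 7, 4, 5, 3 and 3, while the calls over all 11731 genes in the first 3 comparisons rose from 3060, 1286 and 5473 to 6461, 4283 and 7550. A fit of the 2 groups alone gave 1 in HIF1α-ko and 1 in HIF2α-ko. The replicate block gave 4 between the single knockouts (5 in the knockout groups alone) and 2 for the interaction, where PDGFRB joined FGFR1. No filter gave 1 between the single knockouts and 0 for the interaction. Median ratio scaling and quantile normalization each gave 5 between HIF1α/2α-ko and HIF2α-ko, and 0 and 2 for the interaction, and leaving out the mean-variance trend gave 0. Signs turned only in values that were not called. Under median ratio scaling these were MET (−0.190) and EPHA2 (−0.054) in HIF1α-ko, FGFR1 (−0.119) and EPHA2 (−0.112) between HIF1α/2α-ko and HIF2α-ko, and EPHA2 in the interaction (−0.057). Under quantile normalization they were MET (−0.075) and EPHA2 (−0.065) in HIF1α-ko, and EPHA2 in HIF1α/2α-ko against HIF2α-ko (−0.133) and in the interaction (−0.068). Omitting 1 library gave −0.094 to 0.070 for MET and −0.115 to 0.498 for EPHA2 in HIF1α-ko, −0.403 to 0.038 for IGF1R in HIF2α-ko, −0.115 to 0.199 for ERBB2 and −0.489 to 0.052 for PDGFRB in HIF1α/2α-ko, −0.233 to 0.097 for PDGFRB between the single knockouts, −0.129 to 0.176 for AXL and −0.015 to 0.497 for IGF1R between HIF1α/2α-ko and HIF1α-ko, −0.231 to 0.084 for ERBB2 and −0.258 to 0.104 for TGFA between HIF1α/2α-ko and HIF2α-ko, and −0.320 to 0.293 for EPHA2 in the interaction. Without replicate 1 of every group the signs turned for IGF1R in HIF2α-ko (0.266), ERBB2 in HIF1α/2α-ko (0.300), AXL (0.056) and IGF1R (−0.076) between HIF1α/2α-ko and HIF1α-ko, ERBB2 between HIF1α/2α-ko and HIF2α-ko (0.039), and IGF1R (−0.342) and EPHA2 (−0.118) in the interaction. Apart from fits with fewer samples or genes, the cause was not tested.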
